A study of Bos taurus with 6 samples.

Results

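The methylome of bovine dermal fibroblasts was examined at 8 chemokine receptor genes: CXCR1, CXCR2, CXCR4, CXCR5, CXCR7, CCR1, CCR2 and CCR7. The genome had been divided into sequential windows of 3 kb, and the deposited files print a gene symbol beside part of them. Every window carrying the symbol of one of these genes was taken, together with 3 windows on either side, which gave 73 windows of 902984. Of these, 31 carried a receptor symbol, out of 354832 labelled windows, and 42 were flanks. A window was found for 7 of the 8 genes, since no window carried the symbol CXCR1. The genes were chosen by the age contrast in these same libraries, because windows at CXCR7 and CXCR2 were lower at 16 months, so their age differences are given as a description, with no p, and nothing is read from their being called in the fit over all windows.

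The libraries came from Bos taurus, from 3 Holstein heifers, each sampled at 5 and at 16 months of age, with 1 fibroblast culture and 1 library per animal and age (n = 3 per age). All 6 cultures were at passage 5, received no treatment and were grown in the same medium with serum. Per the study's methods, the animals were picked from a larger collection as mid-level responders to LPS, and each pair of cultures comes from 1 animal, so age is compared within a genotype. Each animal and age is represented by a single culture, so p-values measure only the spread between these cultures, and differences between cultures and differences between ages cannot be told apart. The fibroblast label could not be checked against expressed markers, because the assay measures DNA.

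Chemokine receptors are G protein-coupled receptors that read gradients of small secreted proteins and steer the movement of cells. CXCR1 and CXCR2 bind IL-8 and related ligands that attract neutrophils, CXCR4 binds CXCL12, and CXCR5 and CCR7 guide lymphocytes within lymphoid tissue. CXCR7, now named ACKR3, is an atypical receptor that takes up CXCL12 without classical G protein signalling, and it is known in stromal as well as vascular cells. CCR1 and CCR2 are receptors of monocytes and other leukocytes. In the methylated CpG island recovery assay (MIRA-Seq), sonicated DNA is recovered by its affinity to methyl-binding proteins, so the reads of a window rise with its methylation and also with its density of CpG sites. A change in the share of methylated copies in each cell and a change in the mixture of cells cannot be told apart in such bulk DNA.

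Between 19.9 and 43.6 M reads were counted over all windows of a library. Signal is given below as counts per M reads (CPM), relative to the summed reads of the tested windows after TMM scaling. All windows have the same length, so CPM was not corrected for length. The density of CpG sites was not measured, so levels of different windows or genes rank their signal and not their methylation. The 5-month culture of animal 1 had the lowest depth and 32.4% of all windows at 0 reads, against 7.80% in its 16-month culture. In animal 2 the order was opposite, with 6.70% at 5 months and 25.5% at 16 months. Of the 73 windows, 60 held a read in every library, and 21 passed the filter of at least 1 CPM in at least 3 of the 6 libraries and were tested. These comprised 11 own windows and 10 flanks, with a median of 70 reads per library (range 9 to 565). The 52 windows that did not pass had a median of 7 reads per library and at most 44. Own windows of the receptors passed in 35.5% of cases, against 17.5% of all windows with a gene label. Of the 11 that passed, CXCR7 held 4 and CXCR2 held 3. These genes were chosen for called windows, which must pass the filter, so nothing is read from this share.

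The level of signal differed widely between the genes. CXCR7 was highest, with 4.87 ± 1.57 CPM per own window (SD, n = 6 libraries), followed by CCR7 at 3.21 ± 1.21, CXCR5 at 2.27 ± 0.342 and CCR1 at 1.61 ± 0.544 CPM. CCR2 at 0.811 ± 0.577, CXCR2 at 0.789 ± 0.376 and CXCR4 at 0.581 ± 0.450 CPM were the lowest. Neighbours in this order overlapped over the libraries throughout. CXCR7 ranged from 3.37 to 7.02 CPM and CXCR4 from 0.161 to 1.35 CPM, and the ranges of these extremes did not overlap. Over all windows with a gene label the median was 0.242 CPM and the 90th percentile 2.58 CPM.

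**Figure D1:**
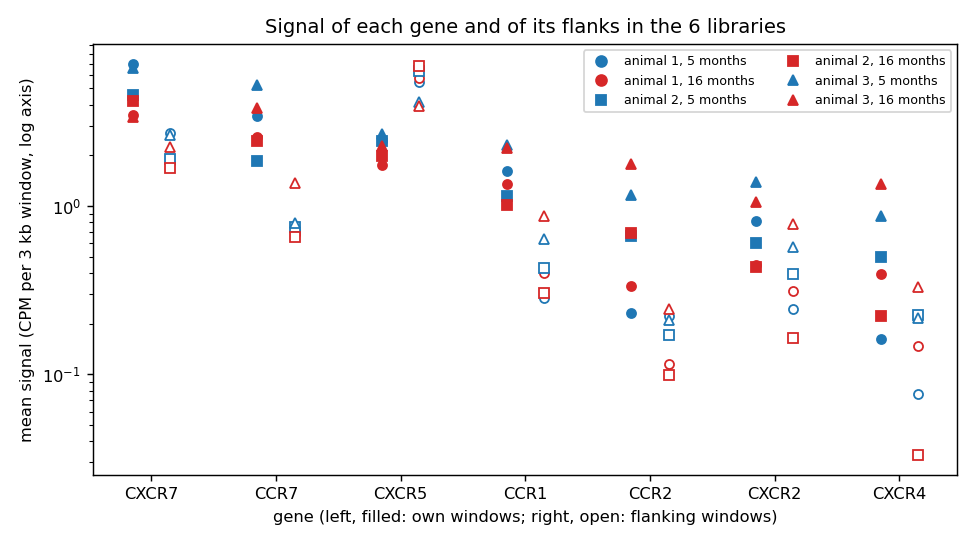
Mean signal of the own windows (filled, left) and of the 6 flanking windows (open, right) of each gene, in CPM per 3 kb window on a log axis, with 1 symbol per library (shape for animal, colour for age). Own windows lie above the flanks in all 6 libraries for every gene except CXCR5, where they lie below in all 6.

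Signal stood above the flanks in 6 of 6 libraries for CXCR7, CCR7, CCR1, CCR2, CXCR2 and CXCR4. The share of all labelled genes for which this holds was not computed. For CCR2 the gap was narrow in animal 1 at 5 months, with 0.230 against 0.222 CPM from 5 reads. The difference was 2.71 ± 1.23 CPM for CXCR7, where the flanks averaged 2.16 CPM, and 2.38 ± 1.14 CPM for CCR7, where they averaged 0.827 CPM. It was only 0.379 ± 0.262 CPM for CXCR2, and 0.00351 CPM there as a median over windows. CXCR5 was the exception, with an own-minus-flank difference of -3.13 ± 1.35 CPM and flanks that averaged 5.40 CPM. Of those flanks, 3 carry the label of the neighbouring gene BCL9L, and with 1 window on either side in place of 3 the difference turned to 0.264 CPM above the flanks.

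In 4 of the 6 genes with several windows, most reads fell in a single window. This top window held 87.6% of the reads of CCR7, 74.4% of those of CXCR5, 70.3% of those of CXCR4, 60.8% of those of CXCR7, 46.6% of those of CCR1 and 32.8% of those of CXCR2. CCR2 has only 1 window. The top window was the last of the gene on its strand in 4 of the 6 receptors with several windows (CXCR5, CXCR7, CCR1 and CCR7) and the first in the other two, CXCR2 and CXCR4. Among all 13975 labelled genes of 2 to 11 windows, the top window was the last in 35.6% and the first in 25.7%. Own windows that hold a coding segment had a median of 0.895 CPM (14 windows), against 0.353 CPM for the 17 without. The same medians over all labelled windows were 0.393 and 0.204 CPM.

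The CXCR7 label covers 5 windows on the plus strand of chromosome 3, from 116648410 to 116663409 in the UMD 3.1 build, and the files print a coding segment (CDS) only beside the last. The signal rose along the gene. The first window, from 116648410, held 1 to 7 reads per library and was not tested. In the second window, from 116651410, animals 1, 2 and 3 gave 49, 79 and 43 reads at the younger age, against 14, 10 and 12 at the older. This corresponded to 2.25, 2.62 and 1.86 CPM at 5 months and 0.334, 0.495 and 0.610 CPM at 16 months. The ages did not overlap, and the lowest 5-month culture was well above the highest 16-month culture. As this window was chosen on the age contrast, nothing is read from the gap. The means were 2.24 ± 0.377 and 0.480 ± 0.138 CPM (SD, n = 3), and the log2 fold change was 2.26 with a standard error of 0.44, or 4.79-fold. This window passed the CPM filter only through the 5-month cultures, since 0 of 3 libraries at 16 months reached 1 CPM.

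The third window of CXCR7, from 116654410, had 6.76, 3.45 and 4.68 CPM at 5 months and 1.98, 2.13 and 2.29 CPM at 16 months, from 43 to 147 reads per library. The mean fell from 4.96 ± 1.67 to 2.13 ± 0.152 CPM, with a log2 fold change of 1.20 (SE 0.23). The fourth window, from 116657410, had 8.64, 4.51 and 5.46 CPM at 5 months and 2.86, 2.77 and 3.05 CPM at 16 months. Its means were 6.20 ± 2.17 and 2.90 ± 0.139 CPM, with a log2 fold change of 1.08 (SE 0.22). In both windows the ages again did not overlap, and the 16-month cultures lay close together whereas the 5-month cultures were spread, with animal 1 highest. Both windows were chosen on this contrast, so nothing is read from the gap. The share of all tested windows without overlap was not computed. On the log2(CPM + 0.5) scale the difference between ages in the third window was 1.55 in animal 1, 0.59 in animal 2 and 0.89 in animal 3.

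The last window of CXCR7, from 116660410, carries the coding segment and was the richest of all the receptor windows, at percentile 99.3 of all windows with a gene label. It had 17.2, 12.1 and 20.8 CPM at 5 months and 12.1, 15.5 and 10.7 CPM at 16 months. Signal was higher at 5 months in animals 1 and 3 and lower in animal 2, the ages overlapped, and the log2 fold change was 0.37 (SE 0.25). The 3 windows downstream had log2 fold changes of 0.58 (SE 0.43), 0.32 (SE 0.21) and 0.33 (SE 0.21), and their levels at 5 and 16 months were 1.57 and 1.11, 4.40 and 3.55, and 6.71 and 5.26 CPM. The 3 windows upstream did not pass the filter. The called windows form an unbroken stretch of 9 kb that ends where the coding window begins, while the window before this stretch had too few reads for a test and the window after it was not called.

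**Figure D2:**
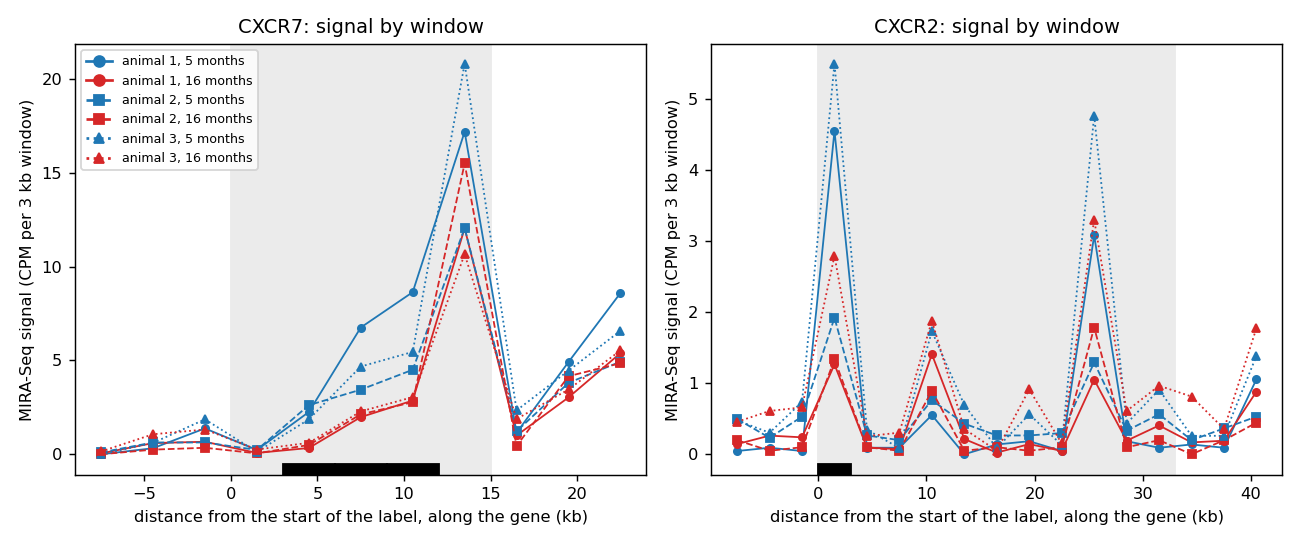
MIRA-Seq signal (CPM per 3 kb window) along CXCR7 and CXCR2 in the 6 libraries, against the distance in kb from the start of the gene's label on its strand; grey marks the labelled windows and black bars the windows called higher at 5 months. In CXCR7 the 3 called windows precede the highest window, and in CXCR2 the called window is the first of the label.

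CXCR2 carries its label over 11 windows on the minus strand of chromosome 2, from 106905934 to 106938933. The label lies between RUFY4 and ARPC2. RefSeq (assembly ARS-UCD2.0, a later build used here only for names and order) also places CXCR1 between these genes and lists CXCR2 among the synonyms of CXCR1. The receptors are close paralogs, so the windows may hold the reads of both genes, and the sources used here do not say how reads of near-identical copies were counted. The values below are therefore those of the CXCR2 label.

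Only 3 of the 11 windows passed the filter. The first window on the strand, from 106935934, held the most reads and no coding segment. In animals 1, 2 and 3 it displayed 4.55, 1.92 and 5.50 CPM at 5 months and 1.26, 1.34 and 2.79 CPM at 16 months, from 27 to 127 reads per library. Every animal was lower at 16 months, but the ages overlapped, because animal 3 at 16 months was above animal 2 at 5 months. The means were 3.99 ± 1.85 and 1.80 ± 0.862 CPM, with a log2 fold change of 1.16 (SE 0.25). Per animal the difference was 1.52, 0.40 and 0.87 on the log2(CPM + 0.5) scale. A further peak, from 106911934 and with a coding segment, had 3.08, 1.29 and 4.76 CPM at 5 months and 1.05, 1.78 and 3.30 CPM at 16 months. It was higher at 5 months in animals 1 and 3 and not in animal 2, with a log2 fold change of 0.58 (SE 0.27). The window from 106926934 had 1.02 ± 0.630 CPM at 5 months and 1.39 ± 0.494 at 16 months, and was lower at 5 months in all 3 animals, with a log2 fold change of -0.54 (SE 0.46). The other 8 windows had means from 0.111 to 0.522 CPM and were not tested.

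**Figure D3:**
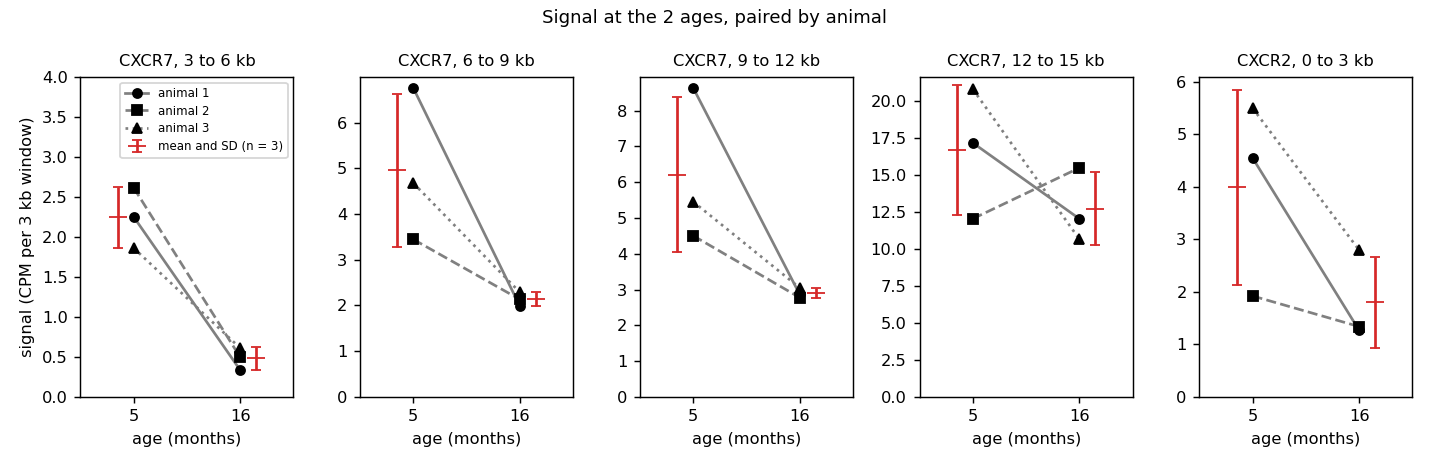
Signal (CPM per 3 kb window) at 5 and 16 months, with the libraries of each animal joined and the mean and SD (n = 3) in red, for the 4 tested CXCR7 windows and the called CXCR2 window, named by distance from the start of the label. All animals fall in the panels of the 4 called windows, whereas animal 2 rises in the coding window of CXCR7.

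A window was called where the false discovery rate over all windows was below 0.1 and the fold change at least 2. By edgeR's quasi-likelihood test with the animal as a block, 194 of 104658 windows tested were called, or 0.185%, and 110 were called as higher at 5 months, or 0.105%. Over the receptors, 4 of the 21 tested windows were called, all higher at 5 months: 3 at CXCR7 and 1 at CXCR2. The genes were chosen for exactly these windows, so nothing is read from this share. Just inside the fold threshold lay the fourth CXCR7 window at 2.11-fold and the CXCR2 window at 2.24-fold. The nearest outside were the CXCR2 window from 106911934 and the flank of CXCR7 from 116663410, both at 1.5-fold. Without animal 1, 0 of these windows were called and only 14 of all windows, against 68 without animal 2 and 1278 without animal 3. The log2 fold changes without animal 1 were 1.99, 0.86 and 0.77 in the CXCR7 windows and 0.77 in the CXCR2 window. Animal 1 had the largest gap in depth between its libraries, and the part of this in the calls was not tested.

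Stacks of reads at a single position were looked for. In the called windows the highest depth of coverage, divided by the number of reads, reached 0.5 in the second CXCR7 window, 0.349 in the third, 0.217 in the fourth and 0.370 in the CXCR2 window. The value of 0.5 was also the highest over all tested windows of the receptors. The ratio was not computed over all windows, and copies spread over several positions would not show in it.

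The other receptors give an age comparison that was not the ground for choosing the genes. Their 11 tested windows, 5 of them flanks of CXCR5 and 2 flanks of CCR7, gave 0 calls in the edgeR fit, where 0 had an unadjusted p under 0.05, against 7429 of the 104658 windows. DESeq2 also gave 0, and called only 14 windows in all. By edgeR 0.185% of all windows were called, so 0 of 11 is near that share and nothing is read from it. The lowest adjusted p was 0.778 (edgeR), and the median log2 fold change was 0.05, against 0.02 over all windows tested.

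The last window of CXCR5, from 30017457 on chromosome 15, had 9.61, 9.51 and 9.05 CPM at 5 months and 6.87, 8.82 and 6.15 CPM at 16 months. All 3 animals were higher at 5 months and the ages did not overlap, but the log2 fold change of 0.38 (SE 0.21) was not called (adjusted p = 0.778, edgeR). How many of all tested windows show no overlap was not computed. The 4 other own windows of CXCR5 did not pass the filter. Its neighbour BCL9L, a coactivator of beta-catenin, lies in the 3 flanks downstream, where log2 fold changes were -0.08, 0.01 and -0.07.

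At CCR7, on the minus strand of chromosome 19, the last window from 41428475 had 13.0, 5.83 and 18.8 CPM at 5 months and 8.93, 9.17 and 11.9 CPM at 16 months. Animals 1 and 3 were higher at 5 months and animal 2 was lower, so the ages overlapped. The log2 fold change was 0.20 (SE 0.24; adjusted p = 0.973, edgeR), and without animal 3 it was -0.0001. The 3 upstream windows of CCR7 held 0 to 44 reads per library and were not tested.

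CCR1, on the plus strand of chromosome 22, had tested windows from 53852867 and from 53855867. The first had 2.16 ± 1.09 CPM at 5 months and 1.81 ± 0.808 at 16 months, with a log2 fold change of 0.23 (SE 0.31; adjusted p = 0.982, edgeR). The next had 2.40 ± 0.828 and 2.03 ± 0.931 CPM, with a log2 fold change of 0.27 (SE 0.28; adjusted p = 0.960, edgeR). In both windows the ages overlapped.

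CXCR4 and CCR2 had too few reads for a test. The richer window of CXCR4, from 61581934 on chromosome 2, held 3, 20 and 29 reads at the younger age and 23, 7 and 39 at the older, or 0.822 ± 0.682 CPM over 6 libraries. The single window of CCR2, from 53612867 on chromosome 22, held 5, 20 and 27 reads in the younger cultures of the 3 animals and 14, 14 and 35 in the older. Its mean was 0.687 CPM at 5 months and 0.935 at 16 months, and no animal was higher at 5 months. Differences at these genes were not detectable at this depth.

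**Figure D4:**
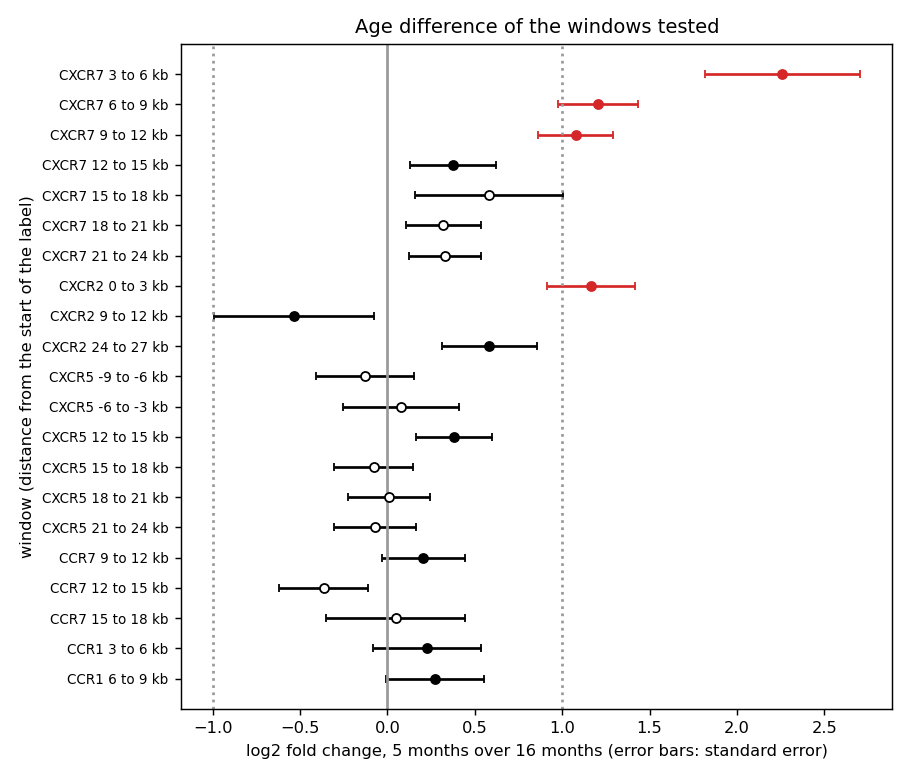
Log2 fold change (5 months over 16 months) with its standard error for the 21 windows tested, named by distance from the start of the label; filled points are own windows, open points flanks, red points called windows, and dotted lines mark 2-fold. Outside CXCR7 and CXCR2 the values lie between -0.37 and 0.38.

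Summing all windows of a gene gives the comparison more reads. By edgeR's quasi-likelihood test 2 of 17990 summed genes were called, or 0.0111%, and 0 of the 5 receptors tested. The 3 not chosen on age had log2 fold changes of 0.38 (SE 0.29) for CXCR5, 0.21 (SE 0.36) for CCR1 and 0.21 (SE 0.29) for CCR7, with 0 at an unadjusted p under 0.05 and adjusted p = 1.00 by edgeR for each. For CXCR7 the summed signal was 332 to 763 reads per library and the log2 fold change 0.75 (SE 0.26), and for CXCR2 it was 96 to 352 reads and 0.63 (SE 0.31). The summed fold change of CXCR7 was thus smaller than that of its called windows, since the coding window holds most of its reads.

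Differences between the animals had no part in the choice of the genes and could be tested, with edgeR's quasi-likelihood F test of the animal terms beside age. Over all windows tested 21512 were called, at least 2-fold between the highest and the lowest animal, or 20.6%. Of the 21 receptor windows 8 were called, or 38.1%, but the windows of a gene are neighbours and are not independent. The window of CXCR2 from 106911934 averaged 2.07, 1.54 and 4.03 CPM in animals 1, 2 and 3 (adjusted p = 0.000999, edgeR). The CXCR2 window from 106935934 averaged 2.91, 1.63 and 4.15 CPM (adjusted p = 0.00259, edgeR). Animal 2 was lowest and animal 3 highest in both.

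The same order held at CCR1 and CCR7. The CCR1 windows averaged 1.78, 1.17 and 3.00 CPM (adjusted p = 0.0142, edgeR) and 2.04, 1.45 and 3.17 CPM (adjusted p = 0.0296, edgeR) in animals 1, 2 and 3. The CCR7 window from 41428475 averaged 10.97, 7.498 and 15.4 CPM (adjusted p = 0.0199, edgeR). The other called windows were flanks: one of CXCR7 from 116663410, one of CCR7 from 41422475 and the BCL9L window from 30026457. In the last the order was turned, with 12.1, 16.8 and 7.80 CPM (adjusted p = 0.00892, edgeR) and animal 3 lowest. In the 4 tested own windows of CXCR7, 0 were called between animals, with adjusted p from 0.231 to 0.949 by edgeR, and 0 had an animal range of 2-fold.

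The scaling bears on the place of animal 3, whose libraries had the lowest TMM factors, 0.718 and 0.850 against 1.03 to 1.22 in the other two animals. Scaled by library size only, 3 of the receptor windows were called in place of 8, while 31436 were called over all windows. Animal 2 stayed lowest in the CXCR2, CCR1 and CCR7 windows under both scalings. Animal 1 was then highest in the CXCR2 window from 106935934 at 3.09 CPM against 2.63 in animal 3, in the CCR1 window from 53855867 and in the CCR7 window from 41428475, so that animal 3 led there only under TMM factors. Without animal 3 the count was 0 and the share over all windows fell to 1.43%, and without animal 2 they were 1 and 14.4%.

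**Figure D5:**
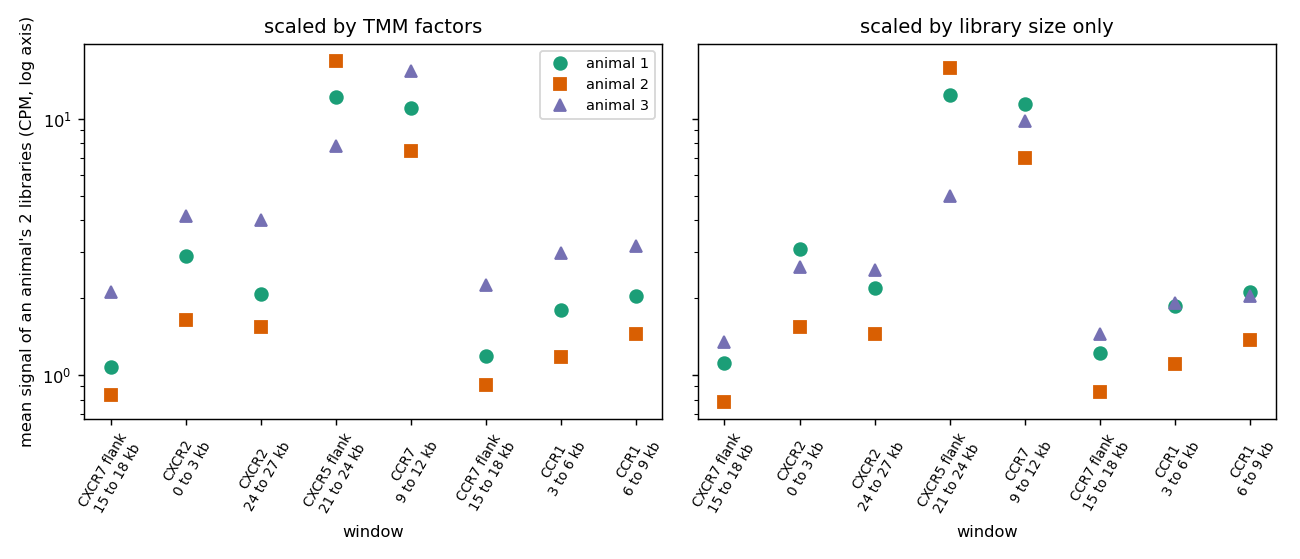
Mean signal of the 2 libraries of each animal (CPM, log axis) in the 8 windows called between animals, scaled by TMM factors (left) and by library size only (right), named by distance from the start of the label. Animal 2 is lowest in 7 of the windows in both panels, whereas the lead of animal 3 in the left panel is partly lost in the right.

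Further genes of chemokine signalling were described from lists with known roles. Of 18 symbols listed for other chemokine receptors, some of them alternative names of the same gene, 14 were found. They had 35 windows and 19 tested, of which 0 were called, against 194 (0.185%) of all 104658 windows tested. A count of 0 of 19 is near that share, so nothing is read from it. An unadjusted p under 0.05 (edgeR) was seen in 3, against 7429 of all 104658 windows tested. All 3 had positive log2 fold changes, and the median over the 19 windows was 0.11. The receptors with the highest windows were CCR6, which binds CCL20, at 11.8 ± 2.79 CPM (log2 fold change -0.17), CXCR6, the receptor of CXCL16, at 7.61 ± 2.16 CPM (0.09), and CXCR3, the receptor of interferon-induced chemokines, at 7.60 ± 1.70 CPM (0.25). CCR9, the gut-homing receptor, had 7.88 CPM at 5 months and 4.77 CPM at 16 months in the window from 54041867 on chromosome 22. Its log2 fold change of 0.79 (SE 0.21) passed the rate threshold (adjusted p = 0.0947, edgeR) and not the fold threshold. This window falls outside the rule for genes named and was picked after its values were seen.

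Of 25 symbols listed for ligands, again with some alternative names, 18 were found. They had 78 windows and only 11 tested, of which 0 were called, 0 had an unadjusted p under 0.05 (edgeR) and DESeq2 called 0. Of all 104658 windows tested, 194 (0.185%) were called and 7429 had an unadjusted p under 0.05 (edgeR). DESeq2 called 14. Nothing is read from counts of 0 among so few windows. MIF, a cytokine that binds CXCR2 and CXCR4, had the highest window at 7.13 ± 1.22 CPM (log2 fold change 0.31). Its other window had 6.68 ± 1.43 CPM (-0.11). The label CXCL2, a CXCR2 ligand, runs from 90694982 to 90826981 on chromosome 6, and its only tested window, from 90772982, had 2.82 ± 0.793 CPM (-0.21). This is a value of the label and may not lie at the gene itself. CXCL12, the ligand shared by CXCR4 and CXCR7, had 2.29 ± 0.829 CPM (0.03) in its highest window. Its other tested window, from 45412965 on chromosome 28, had 2.16 ± 1.31 CPM (-0.32) and was called between animals.

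All 12 signalling partners were found, with 293 windows and 86 tested, of which 2 were called higher at 5 months and 0 higher at 16 months. Over all 104658 windows tested, 110 (0.105%) were called higher at 5 months and 84 higher at 16 months. An unadjusted p under 0.05 (edgeR) was seen in 8 of the 86, against 7429 of all windows tested. Both called windows lay in GRK5, a kinase that phosphorylates activated receptors so that arrestins bind, on chromosome 26. The window from 39822431 had 4.42 CPM at 5 months and 2.20 CPM at 16 months, with a log2 fold change of 1.12 (SE 0.24; adjusted p = 0.00982, edgeR). The window from 39753431 had 2.35 and 1.01 CPM, with 1.34 (SE 0.36; adjusted p = 0.0947, edgeR). Both were higher at 5 months in 3 of 3 animals, but 0 were called without animal 1, without animal 2 or by DESeq2, where only 14, 68 and 14 of all windows were. The log2 fold changes of the windows from 39753431 and 39822431 were then 1.47 and 1.04, 0.87 and 0.88, and 1.40 and 1.16. PIK3CG, a kinase subunit activated by G proteins, had the highest window of the list at 82.6 ± 22.1 CPM (log2 fold change 0.17). The windows on either side had 0.0841 and 0.293 CPM, so this is a value of that window and not of the whole gene. ADRBK1, a further receptor kinase, had 14.0 ± 3.01 CPM (0.15), and GRK6 had 11.2 ± 2.00 CPM (0.17).

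Windows of other genes whose signal over the 6 libraries was most like that of the receptors were named by Pearson's r on log2(CPM + 0.5), over 104658 windows. For the CXCR7 window from 116654410 these were windows of CDH4, LOC100849010, PSKH1, ZNF423 and RAB40C, with r from 0.992 to 0.998. Pearson's r does not measure the size of a difference. The log2 fold changes by age of these windows were 0.47, 0.55, 0.53, 1.36 and 0.51, against 1.20 in the CXCR7 window. For the CXCR2 window from 106935934 the most alike included windows of MRPL16, MAPK3, COL6A3 and ZNF280A, with r from 0.9945 to 0.999. Their log2 fold changes were 0.46, 1.01, 0.49 and 0.42, against 1.16 in the CXCR2 window. The 6 points of each r share libraries, depth and scaling, and no p is given. An r above 0.95 was found for 155 windows with the CXCR7 window and for 529 with the CXCR2 window.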

How the data were processed

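The 6 MIRA-Seq libraries (3 heifers, each at 5 and 16 months) were grouped by the age and animal in the labels. The authors filtered and trimmed reads, aligned them to UMD 3.1 with NextGENe 2.3.4 and deposited read counts of sequential 3 kb windows, not normalized. The deposited highest depth of coverage of each window, a signal the authors did not scale, was used only beside the read count. The sources used here do not say whether PCR copies were removed, so counts may include copies and intervals of counting alone would be too narrow.

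The tools were edgeR 4.0.16 and DESeq2 1.42.0, with limma 3.58.1, under R 4.3.3, with tables built by pandas 2.3.3 under Python 3.11.15 and figures by matplotlib 3.10.9. Windows with at least 1 CPM, over the counts of all windows, in at least 3 of 6 libraries were tested by edgeR's quasi-likelihood test after TMM scaling, in a model of animal (block) and age, adjusted by Benjamini-Hochberg over all windows, and called at a rate below 0.1 and 2-fold. The likelihood-ratio test named in the study's methods was an alternative. A standard error is the log2 fold change over the square root of its F, on 2 residual and 178 prior degrees of freedom. Summed genes were tested in the same way. The code was tested on simulated data.

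Libraries are paired by animal. Deviations of same-animal libraries from their age means correlated at 0.290, 0.544 and 0.710 in animals 1, 2 and 3, over 104658 windows. Depth was 19.9 to 43.6 M counted reads per library.

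The genes, lists and tests were chosen with earlier results of these data known. Named are all 8 genes, every tested window at them, called windows and the 3 genes with the highest window of each list, and the 5 windows most like each of the CXCR7 and CXCR2 windows with the lowest p, of which 1 is not reported here. Alternatives were other tests, scalings, filters, thresholds, no block and leaving out each animal. RNA-Seq was not analysed here. No sequence is printed, since no genome of the build was used.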

Additional observations from a re-analysis of the deposited data

How the results depend on the processing

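Of the 4 receptor windows called by age, 1 was called by DESeq2's Wald test, 1 with TMM factors from all windows, 1 with a filter of 0.5 CPM and 0 with no filter. The 1 left was the CXCR7 window from 116651410, which passed the 1 CPM filter only through the 5-month cultures. These windows were chosen on this contrast, so the counts describe the processing and are no further test of age. Over all windows the calls fell from 194 to 14, 25, 96 and 2 in these settings. Without the animal as a replicate block 0 were called, with 0 over all windows. Leaving out an animal gave 0 to 4, the lowest without animal 1. Over all windows 14, 68 and 1278 were called without animals 1, 2 and 3. The likelihood-ratio test, size factors, library size only and the other thresholds gave 4. Over all windows the first 3 settings called 208, 201 and 99. A rate of 0.05 called 137 and any fold change 340. Without CXCR7 and CXCR2 the count was 0 under all 13 alternatives, and so was that of the ligands. Each of these sets had 11 tested windows, and the main fit called 0.185% of all windows. A count of 0 is near that share, so nothing is read from it. The other receptors had 1 call (CCR9) when any fold change was allowed, beside 340 over all windows. The 2 signalling partner windows became 1 at a rate of 0.05, by library size only and with a filter of 0.5 CPM, and 0 by DESeq2, with TMM factors from all windows, with no filter and with no block, and leaving out an animal gave 0 to 2. Summed receptor genes ranged from 0 to 1 when an animal was left out (1 without animal 2, beside 277 over all genes), and without the block gave 0. The 8 windows called between animals became 3 by library size only, 3 with a filter of 0.5 CPM and 0 to 7 when an animal was left out. Over all windows the share called between animals was 20.6% in the main fit, 30% by library size only and 18% with that filter. It was 20.1%, 14.4% and 1.43% without animals 1, 2 and 3. As a median over windows, own signal exceeded the flanks by 0.00351 CPM for CXCR2, 1.52 for CCR1 and 0.362 for CCR7, and with 1 flank either side CXCR5 stood 0.264 CPM above its flanks. The log2 fold change of the CCR7 window from 41428475 ranged from -0.0001 without animal 3 to 0.6123 without animal 2. The causes were not tested. Depth limits these results: windows that failed the filter had a median of 7 reads per library, so moderate differences at CXCR4, CCR2 and most of CXCR2 could not be seen, and with 3 animals the calls rest on the spread shared across windows.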
